A study of Mus musculus with 20 samples.

Results

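Neutrophils are drawn into inflamed lung by a small group of CXC chemokines that bind the receptor CXCR2, and the genes described here are 4 of those ligands (Cxcl1, Cxcl2, Cxcl3 and Cxcl5) with 6 genes that mark neutrophils (Cxcr2, Csf3r, Trem1, S100a8, S100a9 and Ly6g). They were chosen by name and matched from symbol to Ensembl identifier, which gave 10 of 10 genes among 49315 identifiers. Their RNA was measured by RNA sequencing in eosinophils sorted by flow cytometry from mouse lung, each library being a pool of the lungs of 3 to 5 mice. The tested libraries came from Balb/c lungs 7 days after transplantation into C57BL/6 recipients whose sample titles state no CSB, or costimulatory blockade (n = 5 pools), and the libraries they were set against came from resting lungs of untreated C57BL/6 mice (n = 5 pools). Such blockade withholds from T cells the accessory signals of activation. The labels describe the eosinophils that infiltrate the graft as derived from the recipient, and grafts under blockade at day 7 and day 30 (5 samples each) were not analysed here. The labels give neither the sort gate nor the age or sex of the mice. No label states that the pools came from separate experiments. The p-values therefore set the difference between groups against the spread among these pools only.

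All 4 ligand genes were higher in the day 7 graft libraries, by log2 fold changes of 1.14 to 2.05, whereas none of the 6 neutrophil genes passed the test. Of all genes tested, 23.3% were higher and 46.7% passed in either direction. Cxcl1 had the clearest difference: its day 7 libraries averaged 123 ± 66.9 CPM (counts scaled to library size) and its resting libraries 46.8 ± 9.82 CPM (mean ± SD, n = 5 each). Every day 7 library was above every resting library, by a narrow margin that depends on the scaling. S100a8 and S100a9, the subunits of calprotectin, averaged 1133 and 1115 CPM in the graft and 1474 and 1535 CPM in resting lung, and their groups overlapped. Of the 5 graft libraries, day 7 replicate 1 was the highest for 5 of the 6 neutrophil genes. Without it the ligand Cxcl3 no longer passed, and S100a8 and S100a9 were lower in the graft. In the 16 other settings tried (other scalings, methods or libraries left out) neither S100a8 nor S100a9 passed. Counting every setting beside the main one, Cxcl3 did not pass in 11 of 17. The method limma-voom placed 2 of 4 ligands higher.

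CXCR2 is a receptor coupled to G proteins that neutrophils carry from the bone marrow into tissue. Its ligands share the amino acids glutamate, leucine and arginine (the ELR motif) just before the first cysteines of the chemokine fold, and macrophages, epithelium, endothelium and granulocytes make them within hours of stimulation through NF-kB. Csf3r is the receptor of G-CSF, the main growth factor of neutrophils. Trem1 is a receptor that amplifies inflammatory signals of neutrophils and monocytes through the adaptor DAP12. S100a8 and S100a9 form calprotectin, an abundant cytosolic complex of neutrophils that binds metal ions. Ly6g is the surface protein recognised by antibodies that identify or deplete mouse neutrophils. In lung transplantation, neutrophils and their CXCR2 ligands are best known for their part in early graft injury.

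The feature that makes the 4 chemokines CXCR2 ligands can be read in their coding sequence. The stretches below, from GENCODE M21 transcripts on mm10, are shown because they hold the ELR motif, whose codons are in capitals. The glutamate is codon 30 of 96 in Cxcl1, codon 33 of 100 in Cxcl2 and Cxcl3, and codon 50 of 132 in Cxcl5.
Cxcl1: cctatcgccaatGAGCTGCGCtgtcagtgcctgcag
Cxcl2: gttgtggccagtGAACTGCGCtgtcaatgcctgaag
Cxcl3: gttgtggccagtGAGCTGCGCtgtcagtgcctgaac
Cxcl5: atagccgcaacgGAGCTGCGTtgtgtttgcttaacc
All 4 genes lie on the plus strand of chromosome 5, and the coding sequences are alike to different degrees. Cxcl2 and Cxcl3 were identical at 89.7% of aligned coding bases and shared an exact stretch of 110 bases. Cxcl1 was identical to Cxcl2 at 78.8% and to Cxcl3 at 75.7%, with exact stretches of 23 bases at most. Cxcl5 was identical to the others at 64.7 to 69.8%. The split of reads between Cxcl2 and Cxcl3 is uncertain, because the authors' rule for reads that match both does not appear in the labels.

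The 3 ligands with a promoter entry, Cxcl1, Cxcl2 and Cxcl3, share letters upstream of their start sites, shown because these genes are textbook targets of NF-kB. Each line gives the 150 bases before the RefSeq start (build GRCm38.p6, plus strand), with matches to GGANTTNCC, a form of the NF-kB motif, in capitals.
Cxcl1 (chr5:90891095-90891244): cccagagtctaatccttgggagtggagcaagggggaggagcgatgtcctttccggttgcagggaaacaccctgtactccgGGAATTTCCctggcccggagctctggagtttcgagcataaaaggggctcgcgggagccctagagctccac
Cxcl2 (chr5:90903749-90903898): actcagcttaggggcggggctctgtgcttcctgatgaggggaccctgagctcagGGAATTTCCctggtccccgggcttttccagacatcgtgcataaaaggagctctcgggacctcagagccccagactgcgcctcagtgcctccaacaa
Cxcl3 (chr5:90785951-90786100): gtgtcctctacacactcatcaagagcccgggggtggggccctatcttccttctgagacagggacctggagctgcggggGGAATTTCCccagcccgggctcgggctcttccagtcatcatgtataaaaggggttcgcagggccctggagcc
The match read GGAATTTCC in all 3 and began 70, 96 and 72 bases before the start of Cxcl1, Cxcl2 and Cxcl3. Over windows of 250 bases before to 50 bases after the start, searched on both strands, 4 of the 9 genes with a promoter entry (Cxcl5 has none) held a match, the fourth being Cxcr2 with GGACTTCCC beginning 26 bases before its start. Of all 32851 promoters that RefSeq lists here, 1296 (3.95%) held one. A match describes letters, and no binding was measured.

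Library totals were 15695074 to 26683784 counts at day 7 and 6666577 to 12883144 in resting lung, and the columns of the groups stood in separate deposited tables, so batch and group cannot be told apart. The eosinophil receptor genes Ccr3 and Siglecf were measured in every library, at 171 to 811 and 134 to 300 CPM at day 7 and at 159 to 472 and 105 to 199 CPM in resting lung. Of the 11 eosinophil markers 2 were higher, 6 lower (Epx, Prg2, Prg3, Ear1, Ear2 and Ear6) and 3 did not pass, with a median log2 fold change of -1.79. Only 1 was higher in most other settings, among them library totals alone, limma-voom and without day 7 replicate 1. With no filter on low counts 4 were lower. The summed CPM of the 11 markers was 920.4 to 3172 at day 7 and 1651 to 3118 in resting lung. Markers of other cells moved with the group. Beside these counts and those of the eosinophil markers, 23.3% of all genes tested were higher and 23.4% lower. Summed marker CPM of monocytes and interstitial macrophages (10 of 14 higher, 0 lower) was 4302 to 8360 at day 7 and 1790 to 2326 in resting lung. Of these 14, 2 were lower with DESeq2 and 3 without day 7 replicate 2, each time beside 10 higher. Summed marker CPM of T cells (8 of 8 higher) was 295.6 to 770.4 at day 7 and 69.4 to 101 in resting lung. Sums were lower at day 7 for endothelium (8 of 8 lower, 65.9 to 138 against 1698 to 2317), epithelium (8 of 9 lower, 40.6 to 482 against 3260 to 4633), red cells (6 of 6 lower, 46.1 to 104 against 1235 to 1865) and platelets (5 of 5 lower, 54.1 to 74.9 against 191 to 347). B cell markers were lower as well (5 of 5 lower, 146.1 to 227.2 against 282.5 to 412.9). Alveolar macrophage markers (5 of 7 lower, 1 higher) had overlapping sums, 477.7 to 1255 against 1123 to 1734. Of 7 dendritic cell markers 3 were higher and 1 lower, and of 5 natural killer cell markers 2 were higher and 0 lower. Every one of these markers had counts in both groups. The part of these cells in the values below was not tested, and fewer cells of a type cannot be told apart from less RNA per cell.

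Differences were tested with edgeR's quasi-likelihood F test over 16500 genes, with Benjamini-Hochberg adjustment and a threshold of 0.05. Log2 fold changes are day 7 over resting and CPM are scaled by TMM, edgeR's correction for library composition. All 10 genes passed the filter on low counts, and 4 of 10 were higher, set against 23.3% of all genes tested. None of the 10 was lower, set against 23.4% of all genes, and 4 of 10 in either direction stands close to the 46.7% of all genes. The groups did not overlap for 1 of 10, below the 35.1% of all genes. The median log2 fold change was 1.34 over the 4 ligands and -0.32 over the 6 neutrophil genes, beside 0.05 over all genes tested. None of the 6 neutrophil genes passed at an unadjusted p of 0.05 either, nor with DESeq2 or limma-voom. DESeq2 also placed 4 of 4 ligands higher, whereas limma-voom placed 2 of 4 higher.

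**Figure D1:**
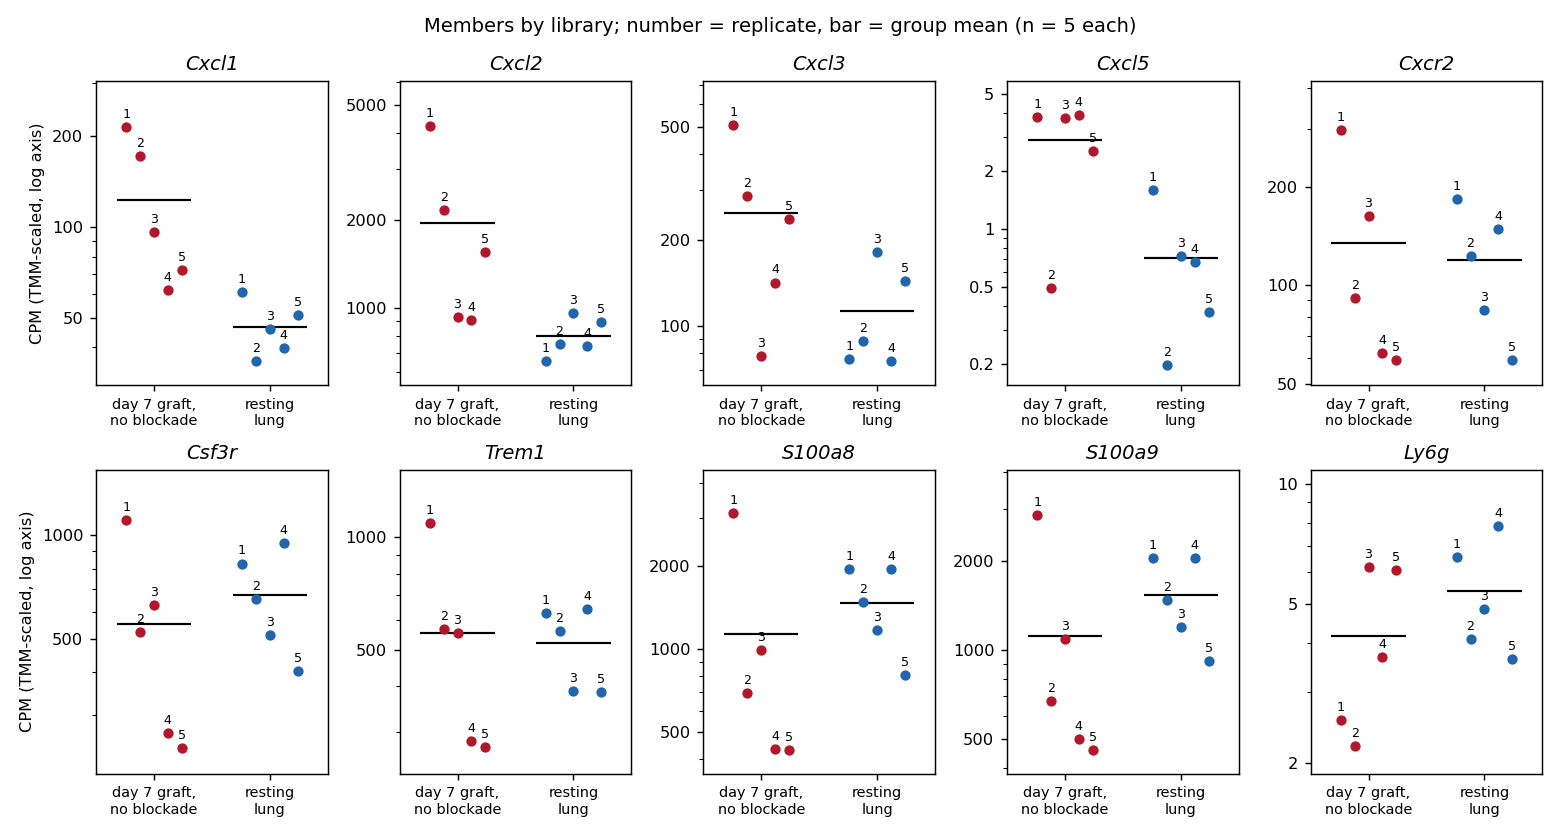
TMM-scaled CPM on a log axis for each of the 10 genes, with one point per library labelled by its replicate number, day 7 graft without blockade in red on the left and resting lung in blue on the right, and a bar at the mean of 5. On this scale the groups are narrowly apart for Cxcl1, and replicate 1 is the highest red point in Cxcl1, Cxcl2, Cxcl3, Cxcr2, Csf3r, Trem1, S100a8 and S100a9.

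Among the ligands, Cxcl1 (ENSMUSG00000029380, chromosome 5, 90891241 to 90893115, mm10), the mouse chemokine also called KC, had 215, 172, 96.5, 61.75 and 72.0 CPM in day 7 replicates 1 to 5, against 61.0, 36.1, 45.9, 39.9 and 51.3 CPM in resting replicates 1 to 5. With TMM scaling the lowest graft library stood just above the highest resting library, so the groups touch without overlapping. By library totals alone they overlap: day 7 replicate 4 held 937 of 15695074 counts and resting replicate 1 a larger share, 576 of 8579398. Between groups Cxcl1 differed by 1.40 ± 0.32 on the log2 scale (± SE throughout, adjusted p = 0.00282 by the quasi-likelihood test), and by 1.11 without day 7 replicate 1 (adjusted p = 0.00473). Across every other setting tried and each library left out, Cxcl1 stayed higher and past the threshold.

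Cxcl2 (ENSMUSG00000058427, chromosome 5, 90903871 to 90905938), also called MIP-2 and a product of activated macrophages and granulocytes, had 4224, 2165, 928, 905.0 and 1558 CPM at day 7, against 654, 751.5, 956, 740 and 893 CPM in resting lung. Graft replicates 1, 2 and 5 lay above all resting libraries, while replicates 3 and 4 lay within the resting range. The log2 fold change was 1.29 ± 0.37 (adjusted p = 0.0115). It was 0.81 without day 7 replicate 1 and still passed (adjusted p = 0.0162). With no filter on low counts it narrowly missed the threshold (adjusted p = 0.0506).

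Cxcl3 (ENSMUSG00000029379, chromosome 5, 90786103 to 90789600), the closest relative of Cxcl2, had 506, 285, 78.3, 142 and 236 CPM at day 7, against 76.5, 88.1, 181, 74.8 and 143 CPM in resting lung. The same 3 graft libraries stood above the resting range, and replicate 3 was near its lower end. Its log2 fold change was 1.14 ± 0.42 (adjusted p = 0.0415). This call was the least stable of the 4, since it was lost in 11 of 17 other settings, among them without day 7 replicate 1 (log2 fold change 0.73, adjusted p = 0.121), 2 or 5 and without resting replicate 1, 2, 4 or 5 (adjusted p 0.0501 to 0.121 over these 7).

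Cxcl5 (ENSMUSG00000029371, chromosome 5, 90759360 to 90761624), which in lung is made chiefly by epithelium, was scarce, with 274 counts over the day 7 libraries and 34 counts over the resting libraries. Its day 7 values were 3.84, 0.494, 3.76, 3.89 and 2.53 CPM, against 1.59, 0.199, 0.723, 0.676 and 0.370 CPM in resting lung. Graft replicates 1, 3, 4 and 5 were above every resting library and replicate 2 was not. The fitted log2 fold change of Cxcl5 was 2.05 ± 0.58 (adjusted p = 0.0102) and 1.94 without day 7 replicate 1 (adjusted p = 0.0202). The summed epithelial markers were lower in the same graft libraries. Per kilobase of the longest coding transcript, mean levels of the ligands in the graft were 1052 CPM for Cxcl2, 246 for Cxcl3, 129.5 for Cxcl1 and 1.84 for Cxcl5. In resting lung the order was the same, at 430, 111, 49.1 and 0.452 CPM per kilobase.

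**Figure D2:**
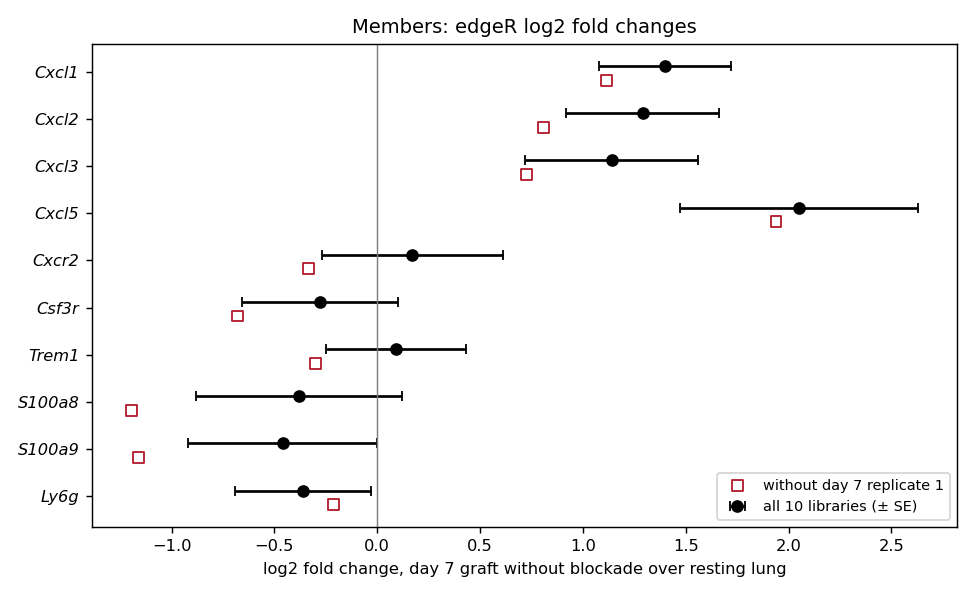
Log2 fold change of each of the 10 genes, day 7 graft without blockade over resting lung, with filled points for all 10 libraries (bars are SE) and open squares for the fit without day 7 replicate 1. The 4 ligands lie at 1.14 to 2.05, and the squares of S100a8 and S100a9 lie at -1.20 and -1.16.

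The 3 receptor genes of neutrophils did not pass. Cxcr2 itself (ENSMUSG00000026180, chromosome 1, 74153989 to 74161246) had 298, 91.3, 162, 62.3 and 59.2 CPM at day 7, against 183, 122.5, 84.3, 148 and 59.3 CPM in resting lung. Only day 7 replicate 1 lay above the resting range. The log2 fold change was 0.17 ± 0.44 (adjusted p = 0.775), -0.33 without that library (adjusted p = 0.470) and -0.050 with scaling by library totals alone.

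Csf3r (ENSMUSG00000028859, chromosome 4, 126024550 to 126044440) had 1106, 524, 627, 266 and 241 CPM at day 7, against 828, 651, 514, 952.5 and 402 CPM in resting lung. Replicate 1 was above the resting range and replicates 4 and 5 below it. Csf3r had a log2 fold change of -0.28 ± 0.38 (adjusted p = 0.588) and -0.68 without replicate 1 (adjusted p = 0.103).

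Trem1 (ENSMUSG00000042265, chromosome 17, 48232768 to 48246924) had 1091, 567, 553, 284 and 274 CPM at day 7, against 628, 561, 388, 643 and 386 CPM in resting lung. As with Csf3r, replicate 1 exceeded the resting range and replicates 4 and 5 fell short of it. The log2 fold change was 0.09 ± 0.34 (adjusted p = 0.856), -0.30 without replicate 1 (adjusted p = 0.373) and -0.13 with library totals alone.

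The calprotectin genes did not pass with all 10 libraries. S100a8 (ENSMUSG00000056054, chromosome 3, 90668978 to 90670035) had 3116, 692, 994, 433.5 and 430.0 CPM at day 7, against 1953, 1489, 1171, 1949 and 805 CPM in resting lung. S100a9 (ENSMUSG00000056071, chromosome 3, 90692632 to 90695721) had 2850, 671, 1087, 503 and 462 CPM at day 7, against 2051, 1475, 1194, 2040 and 916 CPM in resting lung. In both genes day 7 replicate 1 stood above the other 9 libraries, and graft replicates 2, 4 and 5 stood below all resting libraries. The log2 fold changes were -0.38 ± 0.50 for S100a8 (adjusted p = 0.570) and -0.46 ± 0.46 for S100a9 (adjusted p = 0.440). Without day 7 replicate 1, their highest library, they were -1.20 (adjusted p = 0.00725) and -1.16 (adjusted p = 0.00684), and both passed as lower in the graft. Neither gene passed in the 16 other settings. Per kilobase of the longest coding transcript these were the most abundant of the 10 genes, at 2332 CPM for S100a8 and 2148 for S100a9 in the graft, and at 3032 and 2958 in resting lung.

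Ly6g (ENSMUSG00000022582, chromosome 15, 75155240 to 75159126) had few reads, 409 counts over the day 7 libraries and 257 over the resting libraries. It had 2.56, 2.20, 6.20, 3.69 and 6.09 CPM at day 7, against 6.57, 4.08, 4.86, 7.84 and 3.63 CPM in resting lung. Graft replicates 1 and 2 lay below the resting range, so that the graft library richest in S100a8 was among the poorest in Ly6g. For Ly6g the log2 fold change was -0.36 ± 0.33 (adjusted p = 0.403) and -0.21 without replicate 1 (adjusted p = 0.636). Ly6g shares exact stretches of up to 51 bases with the neighbouring Ly6i and up to 42 with Ly6c1 and Ly6c2. Of those relatives Ly6c2, a marker of inflammatory monocytes, averaged 948 ± 239 CPM at day 7 and 187 ± 42.7 CPM in resting lung and was higher in the graft (log2 fold change 2.34, adjusted p = 7.35e-07). Of 6 Ly6 family neighbours 4 were higher and 2 lower, set against 23.3% and 23.4% of all genes tested, with a median of 0.79. Ly6c1, which endothelium also carries, was lower at 53.9 ± 19.3 CPM against 355 ± 31.3 CPM (log2 fold change -2.72).

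The 10 genes varied together only in part. Day 7 replicate 1 was the highest graft library for 5 of the 6 neutrophil genes (Ly6g being the exception) and for 3 of the 4 ligands, whereas it was the highest for 22.5% of all tested genes. In resting lung, replicate 1 or 4 was highest for 6 of 6 neutrophil genes and 2 of 4 ligands, set against 47.7% of all genes. Most ligands and most neutrophil genes thus had the same top library in the graft, whereas Cxcl5 was highest in replicate 4 and Ly6g in replicate 3. In resting lung the top libraries were partly different, and Cxcl2 and Cxcl3 were highest in replicate 3. Eosinophil markers ran differently: 0 of 11 were highest in day 7 replicate 1. There 5 of 11 were lowest, set against 21.1% of all genes tested. In log2 CPM, Siglecf and Epx were above their graft mean there (0.36 and 0.29), and the other eosinophil markers below theirs. Ccr3 had 171, 317, 329, 585 and 811 CPM in day 7 replicates 1 to 5, against 252.3, 472, 454, 159 and 441.5 CPM in resting replicates 1 to 5. Its highest graft library, replicate 5, was the lowest graft library for S100a8, S100a9, Csf3r, Trem1 and Cxcr2. These orders describe 5 pools a group and were not tested.

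**Figure D3:**
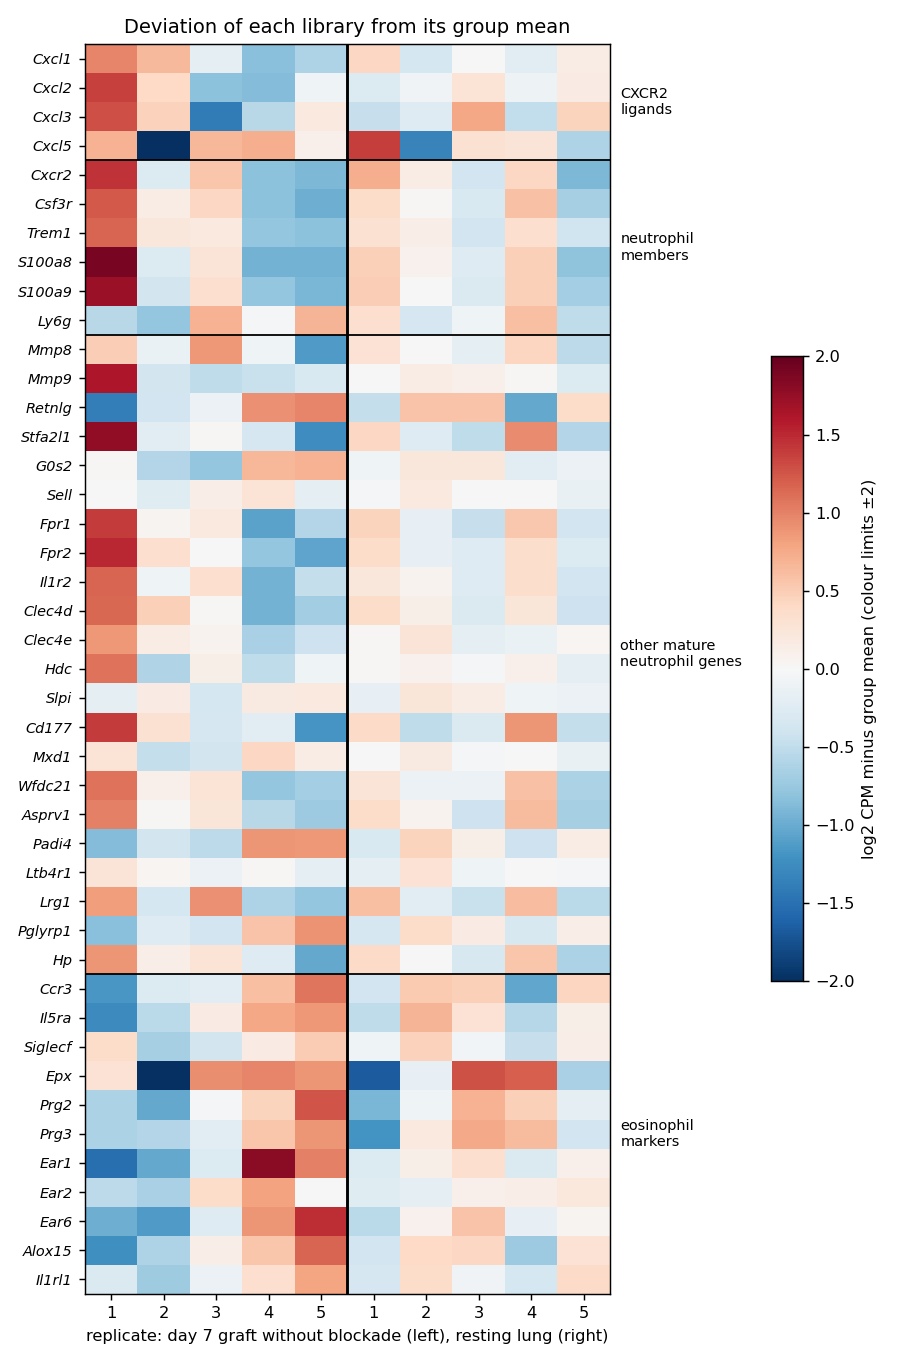
Heat map of log2 CPM minus the group mean, one column per library (day 7 replicates 1 to 5 at left, resting replicates 1 to 5 at right) and one row per gene, for the 4 ligands, the 6 neutrophil genes, 22 other mature neutrophil genes and 11 eosinophil markers. Day 7 replicate 1 is dark red for most neutrophil genes, while Ccr3, Il5ra, Retnlg, Padi4 and Pglyrp1 are blue there.

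By the root mean square difference of centred log2 CPM over the 10 libraries, the gene most like S100a8 among all tested was S100a9, and the reverse, at a difference of 0.1. The next were Csf3r (0.309) and Lcn2 (0.316) for S100a8, and Lcn2 (0.251) and Wfdc21 (0.283) for S100a9. Trem1 was most like Cd33 (0.19), Fpr1 (0.197) and Il1r2 (0.199), Csf3r most like Asprv1 (0.159), the pseudogene Gad1-ps (0.236) and Trem1 (0.24), and Cxcr2 most like Fpr1 (0.295), Trem1 (0.302) and Csf3r (0.307). The ligands had other neighbours. Cxcl1 was most like Ak4 (0.198), Slc19a2 (0.26) and Best1 (0.262), and Cxcl2 most like Gm16439 (0.276), Hilpda (0.282) and Gm10388 (0.296). Cxcl3 was most like Cxcl2 (0.33), then Pla1a (0.376) and Gm14963 (0.44). Cxcl5 and Ly6g, the genes with the fewest counts, had no other of the 10 genes among their nearest 3. The nearest were Ifi202b (0.476) and Gm8909 (0.518) for Cxcl5, and Plekha5 (0.265), Akr1b8 (0.265) and Sdhaf3 (0.274) for Ly6g.

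Ratios of pairs within a library, which do not depend on scaling, were set against each other in an exact permutation test (two-sided, 5 against 5, smallest possible p 0.00794), and none of 9 passed after adjustment over the 9. The ratio of S100a8 to S100a9 counts was nearly constant, at 0.861 to 1.09 in the graft and 0.879 to 1.01 in resting lung, although each gene varied over 6-fold between graft libraries (7.25-fold and 6.17-fold from lowest to highest). Without correction for gene length, Cxcl2 counts were 15.0 times those of Cxcl1 in the graft and 17.2 times in resting lung (geometric means, adjusted exact p = 0.83), and Cxcl3 counts were 0.126 and 0.133 times those of Cxcl2 (adjusted exact p = 0.83). Among receptors, Trem1 over Csf3r was 1.03 in the graft and 0.796 in resting lung (exact p = 0.0159, adjusted exact p = 0.143), and Cxcr2 over Csf3r was 0.234 and 0.173 (exact p = 0.0317, adjusted exact p = 0.143). Ly6g over S100a9 ranged from 0.000898 in day 7 replicate 1 to 0.0132 in day 7 replicate 5, whereas the 5 resting libraries lay between 0.00276 and 0.00407 (adjusted exact p = 0.83).

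**Figure D4:**
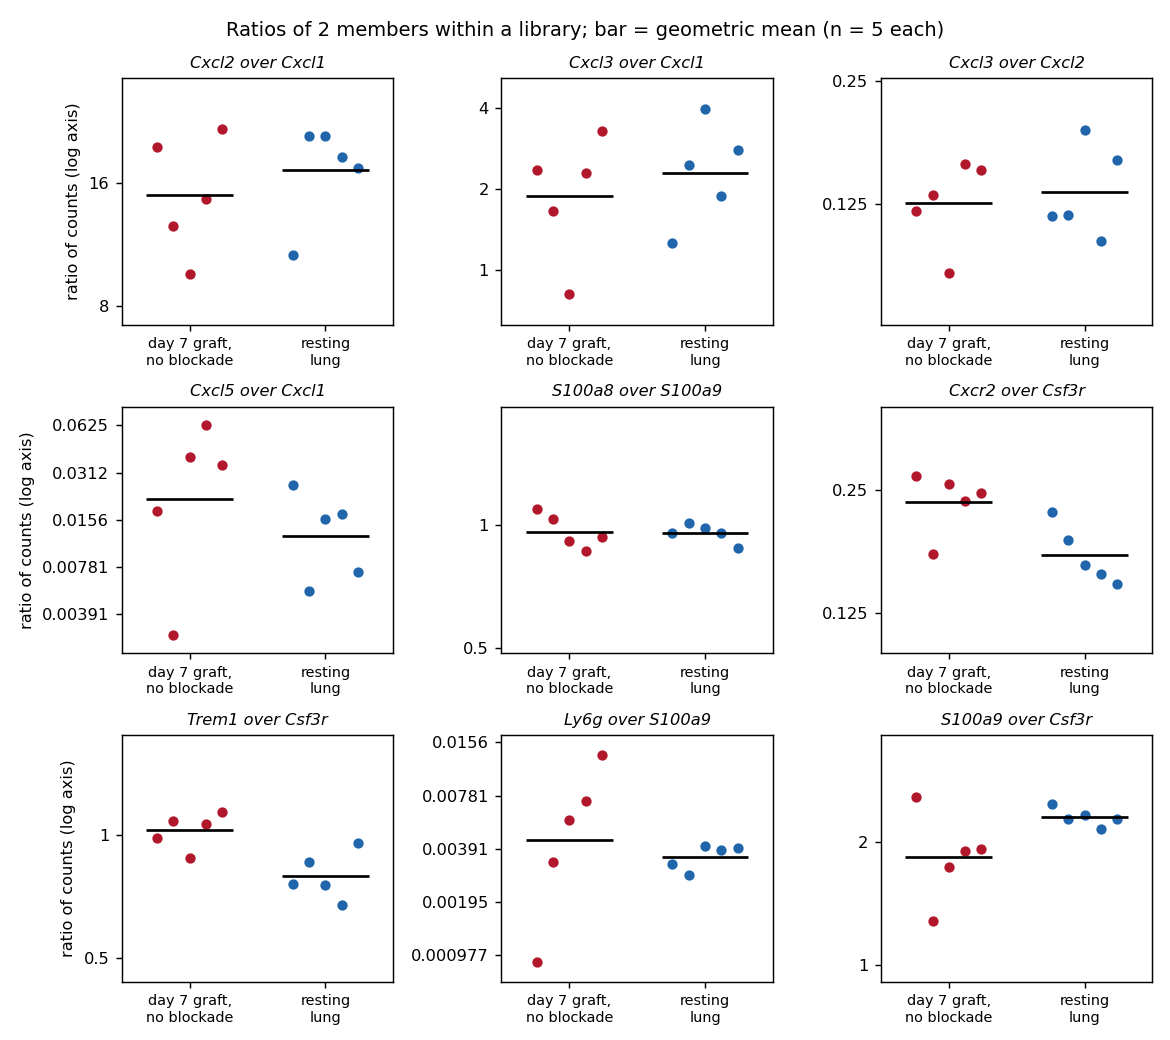
Ratio of the counts of 2 genes within each library on a log axis, day 7 graft without blockade in red at left and resting lung in blue at right, in replicate order with a bar at the geometric mean of 5. S100a8 over S100a9 stays between 0.861 and 1.09 in all 10 libraries, while Ly6g over S100a9 spreads widely in the graft.

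Of 6 other genes listed around the CXCR2 axis 5 were tested, and 1 was higher, 3 were lower and 1 did not pass. The shares over all genes tested were 23.3% higher and 23.4% lower. This list is not limited to ligands of CXCR2. Its median log2 fold change of -1.79 is the value of Pf4, a platelet chemokine gene. Mif, a cytokine that can engage CXCR2 besides its receptor CD74, averaged 207 ± 75.2 CPM at day 7 and 35.8 ± 3.69 CPM in resting lung (log2 fold change 2.53, adjusted p = 8.79e-07). The platelet chemokine genes Ppbp and Pf4 were lower, at 3.82 ± 1.85 against 115 ± 32.7 CPM and at 20.0 ± 12.2 against 69.0 ± 13.2 CPM (log2 fold changes -4.89 and -1.79). Both genes are also in the platelet marker list, whose other 3 members, Gp9, Itga2b and Gp1bb, were lower as well. Cxcl15, a chemokine of lung epithelium, was lower at 7.14 ± 4.70 against 36.3 ± 7.31 CPM (log2 fold change -2.34), beside the lower epithelial markers. Cxcr1, the other receptor of this family, had 2.25 ± 1.49 CPM at day 7 and 1.24 ± 0.422 CPM in resting lung and did not pass (adjusted p = 0.163). It passed as higher without day 7 replicate 5 (1.15, adjusted p = 0.0199) and with no filter on low counts (0.99, adjusted p = 0.0387).

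Of 22 other genes of mature neutrophils 5 were higher, close to the 23.3% of all genes tested, and 1 was lower, set against 23.4%. The other 16 did not pass, and the median of the 22 was 0.10. With library totals alone, which lowered the median of all genes by 0.19, the split was 4 higher and 4 lower, and without day 7 replicate 1 it was also 4 and 4, with medians of -0.13 and -0.16. The higher ones were Fpr2, a formyl peptide receptor (log2 fold change 2.15), Clec4e, the receptor Mincle, Clec4d, its partner (0.99), Mxd1, a repressor of the MYC network (0.80), and Ltb4r1, the leukotriene B4 receptor (0.73). Clec4e had 2652, 1614, 1529, 929 and 1089 CPM at day 7 and 479 to 652 CPM in resting lung, with no overlap (adjusted p = 0.000205). Clec4d did not pass without day 7 replicate 1 (0.62, adjusted p = 0.0760), nor without resting replicate 2, 3 or 5, without a filter, with library totals alone or with limma-voom. The lower one was Lrg1 (-0.96, adjusted p = 0.0464), which did not pass without day 7 replicate 2, 4 or 5, without resting replicate 1, 2 or 4, or without a filter (adjusted p up to 0.212). Retnlg, a resistin-like protein of neutrophils, and Hdc, the enzyme that makes histamine, did not pass (-0.32 and 0.34, adjusted p = 0.573 and 0.332). Retnlg went against S100a8 across libraries, with 1385, 2790, 3336, 6805 and 7127 CPM in day 7 replicates 1 to 5, the order seen for Ccr3. Hdc was at 2214 CPM in day 7 replicate 1 and at 692 to 1135 CPM in the other 4.

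Granule genes of neutrophil precursors in the bone marrow fell: 8 of 11 were lower and 0 higher, with a median of -2.58. Over all genes tested 23.4% were lower and 23.3% higher. At an unadjusted p of 0.05, 1 granule gene was higher. DESeq2 and limma-voom gave 8 lower and 0 higher as well. Ngp averaged 24.5 ± 16.4 CPM at day 7 and 392 ± 200.0 CPM in resting lung (log2 fold change -3.99, adjusted p = 1.54e-05). Mpo, the myeloperoxidase, averaged 12.3 ± 9.65 and 183 ± 71.3 CPM (-3.90), and Ltf, which encodes lactoferrin, 35.1 ± 15.5 and 194 ± 155 CPM (-2.46). Lcn2, an iron-scavenging protein that mature neutrophils also make, did not pass at 84.2 ± 69.2 and 106 ± 47.8 CPM (-0.33, adjusted p = 0.576). It had the pattern of S100a8, with 203 CPM in day 7 replicate 1 and 33.2 to 86.6 CPM in the other 4, and was lower in the graft without that library (-0.95, adjusted p = 0.0315).

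In the G-CSF axis 3 of 8 tested genes were higher, 1 was lower and 4 did not pass, with a median of 0.56. That share is near the 46.7% of all genes called in either direction. The receptor Csf3r did not pass. Stat3, the transcription factor that G-CSF activates, averaged 788 ± 101 CPM at day 7 and 429 ± 23.5 CPM in resting lung (log2 fold change 0.88, adjusted p = 3.48e-05). Jak2, a kinase of cytokine receptors, and Cebpb, a factor of emergency granulopoiesis, were higher by 1.66 and 1.76, and Cebpd, a related factor, was lower (-3.15). Cebpb was highest in graft replicates 4 and 5, at 431 and 676 CPM, the libraries lowest in S100a8. Jak1, Socs3 and Il17ra did not pass (-0.15, 0.23 and -0.12). Csf3, the gene of G-CSF, had 12.7, 8.30, 3.88, 2.11 and 1.18 CPM at day 7 and 0.994 to 3.65 CPM in resting lung (1.25, adjusted p = 0.0942), and it passed without day 7 replicate 5 (1.53, adjusted p = 0.0226). With library totals alone 3 of these 8 genes were higher and 2 lower.

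Of 11 genes of TREM-1 signalling and the TREM family, 3 were higher and 1 lower, set against 23.3% and 23.4% of all genes tested. The other 7 did not pass, and the median was 0.07. With library totals alone the split was 2 higher and 2 lower, and the median was -0.11. Tyrobp, the adaptor DAP12, averaged 1651 ± 117 CPM at day 7 and 1448 ± 163 CPM in resting lung, and Syk, the kinase it recruits, 870 ± 116 and 827 ± 151 CPM (0.19 and 0.07, adjusted p = 0.225 and 0.724). Malt1, which links such receptors to NF-kB, was higher at 258.5 ± 73.1 against 73.9 ± 5.04 CPM (1.81, adjusted p = 2.48e-06). Pglyrp1, reported in human cells as a ligand of TREM-1, did not pass (-0.33, adjusted p = 0.374). Trem2, a receptor of macrophages, was higher by 2.88. Of the monocyte and interstitial macrophage markers 10 of 14 were higher, whereas of the alveolar macrophage markers 5 of 7 were lower and 1 higher. The part of these cells in the Trem2 values was not tested.

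Receptors and relatives of calprotectin were split, with 2 of 8 higher and 3 lower, set against 23.3% and 23.4% of all genes tested. Their median was -0.07. Tlr4, a receptor for calprotectin, averaged 117 ± 66.2 CPM at day 7 and 29.3 ± 7.88 CPM in resting lung (log2 fold change 1.99, adjusted p = 0.000314), and S100a4 was higher by 1.17. Cd36, a scavenger receptor abundant in lung endothelium and macrophages, was lower at 137 ± 46.5 against 696.5 ± 81.9 CPM (-2.34). Ager, the receptor RAGE of alveolar epithelium, was lower (-5.44), and it is also 1 of the 9 epithelial markers. S100a11 passed narrowly as lower (-0.51, adjusted p = 0.0333) and did not pass without day 7 replicate 1, 2 or 3 or resting replicate 2, 3 or 5 (adjusted p 0.0622 to 0.0932). S100a6 and S100a10 did not pass (0.04 and -0.18).

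Inducers and regulators of CXCR2 ligand mRNA were higher in 8 of 13 tested cases and lower in 1, set against 23.3% and 23.4% of all genes. Their median was 0.61, and 0.42 with library totals alone (7 higher, 1 lower). Il1b, the gene of interleukin-1 beta, had 12420, 7638, 6645, 3850 and 5195 CPM at day 7, against 3101, 2916, 2102, 2842 and 1905 CPM in resting lung. Every graft library was above every resting library, and replicate 1 was the highest (log2 fold change 1.47, adjusted p = 0.000692). Il1a, Tlr4, Tlr2 and Tnfaip3 were higher by 2.07, 1.99, 1.12 and 1.18. Tnf had 1407, 660.5, 135, 94.0 and 130 CPM at day 7 and 92.0 to 165 CPM in resting lung. Replicates 1 and 2 were far above the resting range and the other 3 were not. Tnf passed (1.90, adjusted p = 0.0306), but not without day 7 replicate 1 (0.99, adjusted p = 0.121) or 2, nor without resting replicate 1, 3 or 4, nor in 3 of the other settings. Zfp36, which encodes tristetraprolin, a protein that speeds the decay of chemokine mRNA, was lower at 772 ± 191 against 1319 ± 108 CPM (-0.77, adjusted p = 0.00151). The NF-kB regulators Nfkbiz and Nfkbia did not pass (0.16 and 0.17, adjusted p = 0.597 and 0.457). In the same graft libraries 10 of the 14 monocyte and interstitial macrophage markers were higher, and their part in these values was not tested.

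**Figure D5:**
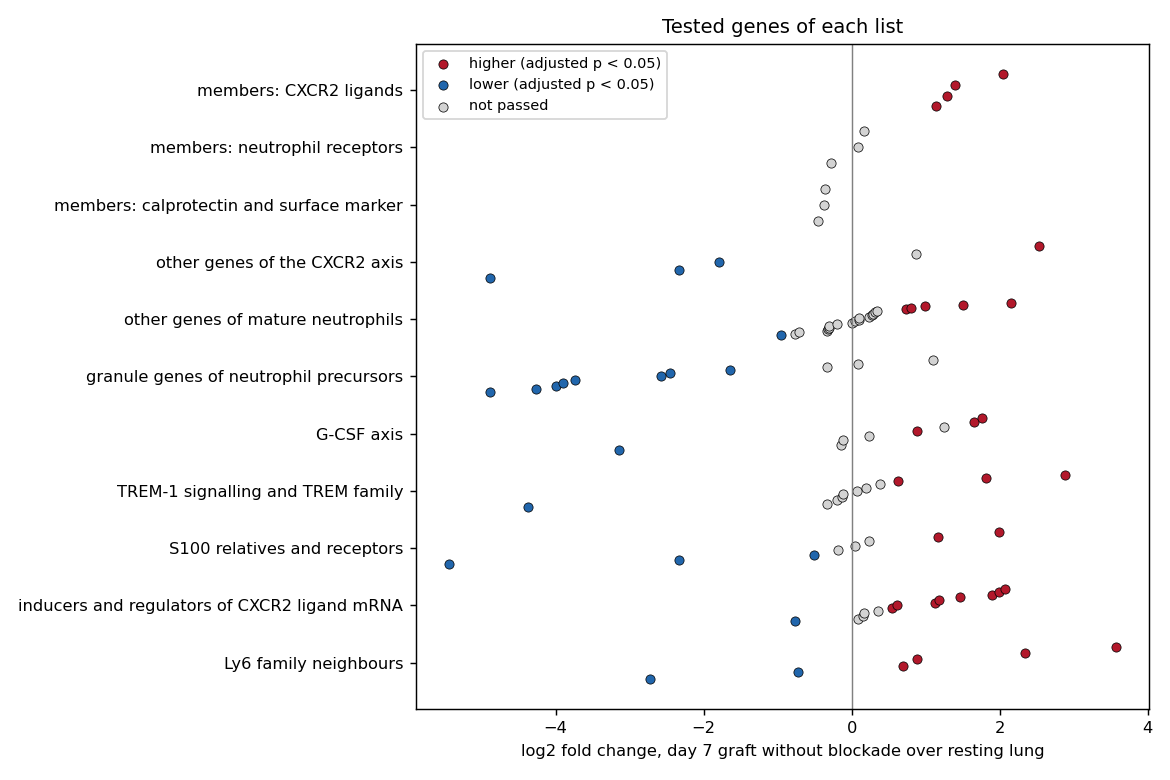
Log2 fold change, day 7 graft without blockade over resting lung, of every tested gene of each list, with red for higher, blue for lower and grey for genes that did not pass the adjusted threshold. The 4 ligands are all red at 1.14 to 2.05, the 6 neutrophil genes all grey, and 8 of 11 precursor granule genes blue.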

How the data were processed

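The authors deposited raw counts per gene, whole numbers that differ in total between libraries. Per the submitters' processing notes, reads were handled with STAR 2.5.2b, featureCounts, Subread 1.5.2, Trimmomatic 0.36 and bcl2fastq 2.17, and the build was mm10. Trizol extraction and the NEBNext Ultra II kit are named per the labels' protocols. Not given in the sources used here were the annotation release, the strand setting and the rule for reads that match several genes.

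Both tables were joined on 49315 identifiers, and 10 columns whose headers are plain numbers and fit no sample label were left out. Symbols and coordinates came from GENCODE M21. edgeR 4.0.16 in R 4.3.3 (filterByExpr, which removed 32815 genes, TMM, robust quasi-likelihood fit, group as the only term) gave the main tests. A standard error is the size of the log2 fold change over the square root of F. Alternatives were other scalings (RLE, upper quartile, totals alone), no filter, DESeq2 1.42.0, limma-voom (limma 3.58.1), a replicate block, and each library left out. Ratios used exact permutation tests in scipy 1.17.1. No libraries of a group were duplicates: chi-square per degree of freedom was at least 6. By library totals, without the TMM scaling of the other CPM values, a count of 3 corresponds to 0.112 to 0.191 CPM at day 7. In resting lung it corresponds to 0.233 to 0.450 CPM. This covers counting error only.

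On simulated data for this comparison (16179 genes, 50 changed by each fold) the test recovered 70% of 2-fold rises, 66% of 2-fold falls, 98% of 4-fold rises and 90% of 4-fold falls, with 9 false calls. The share of genes changed there was far below the 46.7% called in the real data. These rates therefore need not hold for the real comparison. The named genes are the 10 genes, up to 4 genes of highest mean log2 CPM per list, and the 3 nearest profiles per gene, of which 1 is not reported here. Cxcr1, Fpr2, Clec4d, Ltb4r1, Lrg1, Jak2, Cebpb, Cebpd, Csf3, Trem2, S100a4, Tlr2, Tlr4, Ager, Il1a, Tnfaip3, Tnf, Padi4 and the eosinophil markers were named after their values were seen. Genes and lists were chosen with earlier results of these data known. Of 187 listed genes, 8 stand in 2 lists each: Tlr4, Pglyrp1, Il17a, Ppbp, Pf4, Ager, Ly6c2 and Ear1.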

Additional observations from a re-analysis of the deposited data

Results flagged for a closer look

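Over 102 groups of 5 libraries, 7 held a library whose gap to its nearest neighbour exceeded Dixon's 95% critical value (0.71 of the range), and chance alone gives such a library in about 1 of 20 groups. S100a8 in day 7 replicate 1 was at 3116 CPM, with the other 4 graft libraries at 430.0 to 994 CPM. S100a9 in the same library was at 2850 CPM, with the others at 462 to 1087 CPM. Stat3 and Nfkbiz were also far from the rest in day 7 replicate 1, at 962 CPM (others 704 to 771) and 1904 CPM (others 806 to 945). Pf4 was at 41.4 CPM in day 7 replicate 2, with the others at 11.5 to 17.1 CPM. Ly6e was at 1475 CPM in resting replicate 4, with the others at 1251 to 1284 CPM. The ratio of Cxcl2 to Cxcl1 counts was 10.7 in resting replicate 1, with the others at 17.4 to 20.8. The cause of these values was not tested.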

How the results depend on the processing

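Cxcl1, Csf3r and Ly6g kept their direction and their side of the threshold in all 17 other settings. With library totals alone the all-gene median moved by -0.19, and 2495 genes were higher, 33.8% of those called against 49.9% with TMM. There the log2 fold change of Cxcl3 was 0.94 without passing (adjusted p = 0.0772), and those of Cxcr2 and Trem1 changed sign to -0.050 and -0.13. With no filter on low counts, which tested 42249 genes, 6715 genes were lower, and Cxcl2 (1.40) and Cxcl3 (1.25) no longer passed. With limma-voom Cxcl3 (0.98) and Cxcl5 (1.98) did not pass, and Cxcr2 (-0.0053) and Trem1 (-0.076) changed sign. The cause of these shifts was not tested. Leaving out one library at a time gave log2 fold changes of 0.73 to 1.39 for Cxcl3, -0.33 to 0.38 for Cxcr2, -0.30 to 0.27 for Trem1, -1.20 to -0.16 for S100a8 and -1.16 to -0.25 for S100a9. Differences of log2 ratios ranged from -0.033 to 0.053 for S100a8 over S100a9, -0.499 to 0.022 for Cxcl3 over Cxcl1, -0.183 to 0.061 for Cxcl3 over Cxcl2 and -0.085 to 0.884 for Ly6g over S100a9.

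The replicate numbers did not pair the libraries: correlations of same-numbered deviations were 0.107, 0.015, -0.09, -0.16 and 0.066, and none of the libraries correlated best with its own number. With the replicate block 3317 genes were higher and 3636 lower, Cxcl3 was at 1.00 (adjusted p = 0.115) and Trem1 at -0.065. Depth limits Cxcl5 and Ly6g most, with as few as 2 and 40 counts in a library.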
